A study of Mus musculus with 2 samples.

Results

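In the adrenal gland of aged mice, 733 transcripts that the gene annotation classes as targets of nonsense-mediated decay (NMD) were seen as long reads. They were chosen by annotation alone: every GENCODE M21 transcript of type nonsense_mediated_decay to which at least 1 read was assigned as a full match in either library. They are 10.2% of the 7186 NMD transcripts in the annotation and belong to 654 genes. In all, 24248 annotated transcripts of any type had reads.

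The RNA came from adrenal glands of female B6CASTF1/J mice, an F1 hybrid of a C57BL/6 and a CAST strain, aged 18 to 20 months. The series has 1 group and no treatment or genotype contrast, with 2 libraries of 1 µg total RNA each, labelled biological replicates 1 and 2. Their biosample descriptions name different females while the donor entry is the same, so whether 2 animals were used is not settled by the labels. All p-values therefore compare one library with the other and cover counting error only.

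NMD is a surveillance pathway that degrades mRNAs on which translation ends too early. During splicing an exon junction complex is left just upstream of each exon junction, and the first ribosome normally removes all of them. A stop codon well upstream of the last junction leaves a complex in place, and the helicase Upf1 with the Smg and Upf proteins then marks the mRNA for destruction. Many splicing factors use the pathway to limit their own amount, through "poison" exons that carry a stop codon. The NMD label in the annotation is a prediction from transcript structure, so a read of such a transcript shows that the RNA was present and not that it was being degraded.

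The stretches below show how representative transcripts reach their stop codon. Each is printed 5′ to 3′ as spliced RNA from the GENCODE M21 reference transcript (mm10, with T for U) and ends with the annotated stop codon in capitals. Each starts with the 15 bases before the point where it first parts from the most-read coding transcript of the gene. Bases after that point can also be in the coding transcript, as those of its later exons in Tk2-202 and Cyth2-203. They are reference sequence, and allele differences of the F1 hybrid were not examined.
Ddx5-208: cctccagagggctaggtTAG
E2f6-204: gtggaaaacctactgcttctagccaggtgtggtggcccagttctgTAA
Yaf2-202: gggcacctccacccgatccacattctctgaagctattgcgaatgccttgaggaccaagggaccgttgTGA
Cbarp-212: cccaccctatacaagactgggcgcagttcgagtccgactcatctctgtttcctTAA
Cyth2-203: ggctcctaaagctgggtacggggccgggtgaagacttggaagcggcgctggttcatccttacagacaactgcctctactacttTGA
Tk2-202: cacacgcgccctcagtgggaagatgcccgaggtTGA
Srsf3-201: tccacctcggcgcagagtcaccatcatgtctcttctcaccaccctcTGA
Mrap-204: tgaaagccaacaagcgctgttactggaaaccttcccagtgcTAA
In Ddx5-208 the retained intron (chr11:106782694-106783958, minus strand, 1265 bases) supplies the stop, which ends 5 bases into the intron. E2f6-204 (exon chr12:16813847-16813912, plus strand, 66 bases), Yaf2-202 (exon chr15:93317539-93317608, minus strand, 70 bases), Cbarp-212 (exon chr10:80136690-80136743, minus strand, 54 bases) and Srsf3-201 (exon chr17:29039454-29039909, plus strand, 456 bases) carry the stop inside an exon that the coding transcript lacks. Mrap-204 reaches it through an acceptor site moved by 149 bases (its intron is chr16:90738670-90747523, plus strand, in the coding transcript). In Cyth2-203 a donor site moved by 4 bases (the coding transcript's intron is chr7:45808450-45810126, minus strand) shifts the frame, and the stop ends 71 bases after the transcripts part. In Tk2-202 the skipped exon (chr8:104236772-104236845, minus strand) has 74 bases, and the stop ends 21 bases after the transcripts part.

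Replicate 1 held 1412947 reads on annotated mouse genes and replicate 2 held 933963. Replicate 2 gave a larger part of its reads to intron-containing or unspliced models: genomic-class models, which include unspliced and internally primed reads, took 3.54% and 5.87% of gene reads, and annotated retained-intron transcripts 0.676% and 0.955%. Markers of the cortex (Cyp11a1, 27214 and 17278 reads) and of chromaffin cells (Chga, 7027 and 3624 reads) were abundant in both, and the kidney markers Umod and Nphs1 had 0 reads. Skeletal muscle markers were present in replicate 1 only (Acta1, 333 and 0 reads; Ckm, 240 and 0), and the brown fat marker Ucp1 had 2384 and 562 reads. The part of these differences in the results below was not tested.

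NMD transcripts took a small part of the RNA. Replicate 1 had 3044 such reads, 0.215% of its gene reads (exact Clopper-Pearson 95% interval 0.208 to 0.223). Replicate 2 had 2504, or 0.268% (0.258 to 0.279), giving 0.242% ± 0.0372 (SD, n = 2). The intervals do not overlap, and most of the gap was 1 gene. Without Ddx5 the shares were 0.191% and 0.204%, a mean of 0.198% ± 0.00906 (SD, n = 2). The same libraries gave 74.3% and 69.8% of gene reads to annotated protein-coding transcripts.

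The reads were concentrated in few transcripts. Ddx5-208 alone held 943 of the 5548 NMD reads of both libraries (17.0%), the top 5 transcripts 31.5% and the top 100 68.9%. At the other end, 250 transcripts (34.1%) rested on 1 read, 258 (35.2%) on 2 to 4 reads, and 93 had 10 or more. The remaining 6453 annotated NMD transcripts had 0 reads, and seeing none allows a level of up to 3 reads, which is 2.12 CPM in replicate 1 and 3.21 CPM in replicate 2 (CPM scaled to the reads on annotated genes).

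A smaller part of annotated NMD transcripts was seen than of the other two types compared. Genes are called measured here when both libraries gave them 20 or more reads (6413 genes). In those, 550 of 3235 annotated NMD transcripts had a read (17.0%). The figure was 2333 of 10758 for retained-intron transcripts (21.7%) and 10168 of 20371 for protein-coding ones (49.9%). The median NMD transcript with reads made up 1.71% of its gene's reads, against 1.08% for retained-intron and 36.7% for protein-coding transcripts. NMD transcripts with reads had a median length of 1753 bases, and all annotated NMD transcripts 1255 bases. These are descriptions of the 3 classes, with no test between them.

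Most genes with an annotated NMD transcript showed none. Of 1951 measured genes with such an annotation, 484 (24.8%) had at least 1 NMD read. Among those 484 the median NMD share, meaning NMD reads as a percentage of all reads of the gene, was 1.91% (quartiles 0.843% and 4.63%), and 373 (77.1%) were below 5%. The part of genes with an NMD read was of similar size at every level of the gene: 21.1% of genes with 40 to 99 reads over both libraries, 26.1% with 100 to 299, 27.5% with 300 to 999 and 26.5% with 1000 or more. The pooled share was 1.23%, 1.18%, 0.596% and 0.879% in these bins, and 0.373% in the last without Ddx5.

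A small group of genes gave much more. The NMD share was at least 10% in both libraries in 37 measured genes, at least 20% in 15, and at least 50% in 4: Rbmx, Crebzf, Cyth2 and E2f6.

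**Figure D1:**
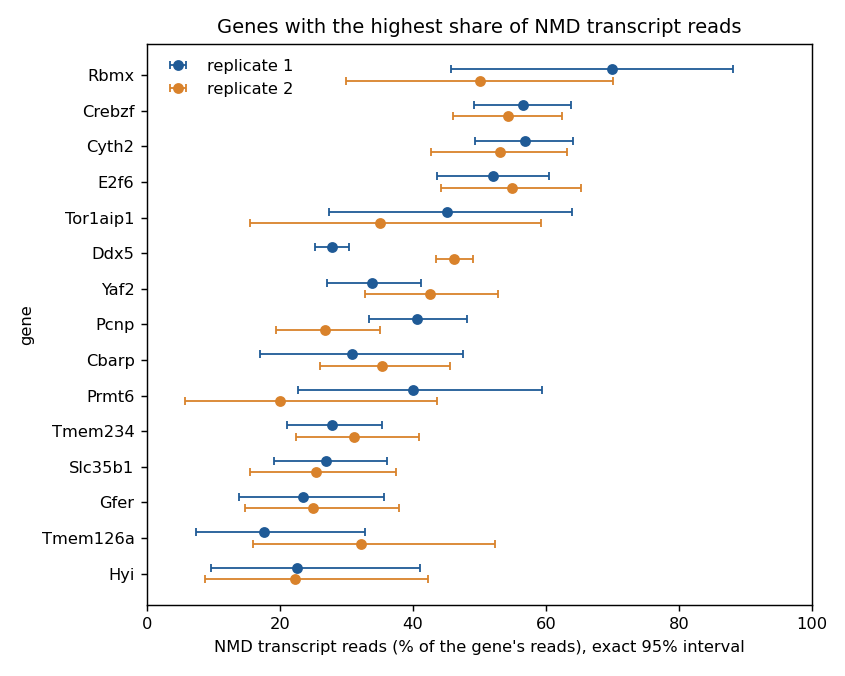
Share of each gene's reads that fell on its NMD transcripts (x axis, percent) for the 15 measured genes with the highest pooled share (y axis), with points for the 2 libraries and bars for exact 95% intervals. Only the Ddx5 intervals are apart, at 27.8% and 46.2%; Crebzf, Cyth2 and E2f6 lie above 50% in both libraries.

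The genes with the highest shares are described one by one. E2f6, a repressor of the E2F family, had 76 NMD reads of 146 gene reads in replicate 1 and 51 of 93 in replicate 2, shares of 52.1% and 54.8%. All of these E2f6 reads were of E2f6-204, whose 66-base exon keeps the frame but contains a stop, so that its coding length is 138 bases against 816 in the coding transcript E2f6-201. E2f6-201 itself had 38 and 17 reads, fewer than E2f6-204 in each library.

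Yaf2, a subunit of variant Polycomb complexes, had 63 of 186 and 43 of 101 reads on Yaf2-202, shares of 33.9% and 42.6%. Its coding transcript Yaf2-201 had more reads than Yaf2-202 in each library, 102 and 47. Prmt6, an arginine methyltransferase, had 12 of 30 and 4 of 20 reads on Prmt6-202, shares of 40.0% and 20.0%, with intervals that overlap. Prmt6-202 encodes the same 1134 bases as the coding transcript and differs past the stop.

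Crebzf, a basic leucine zipper transcription factor, spread its NMD reads over several transcripts. The gene's share was close in the libraries, 56.6% and 54.3% (107 of 189 and 82 of 151 reads). Crebzf-205 had 45 and 57 reads, Crebzf-207 had 37 and 14, and Crebzf-203 had 25 and 11. The first made up 23.8% and 37.7% of the gene, while the other two went from 19.6% to 9.27% and from 13.2% to 7.29%. None of the 3 changes passed the share test described below (adjusted p = 0.150, 0.186 and 0.573). All 3 splice out the same 1047-base intron (chr7:90444378-90445424, plus strand), which lies within an exon of the coding transcript Crebzf-201. In Crebzf-205 the stop is that of a coding transcript of the gene, 286 bases before the last junction.

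Cyth2, an exchange factor for ARF GTPases, had 104 of 183 and 52 of 98 reads on Cyth2-203, shares of 56.8% and 53.1%. The coding transcript Cyth2-202, which differs by the 4-base donor shift, had 62 and 28. Cyth2-203 was thus the larger of the pair in both libraries. Cbarp, an inhibitor of voltage-gated calcium channels, had 12 of 39 and 35 of 99 reads on Cbarp-212. The Cbarp share of 30.8% and 35.4% was close in the libraries although the gene's reads were not. Its coding transcripts had 0 and 1 reads, and the rest of its reads fell on other models.

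Tor1aip1, which encodes a protein of the inner nuclear membrane, had 14 of 31 and 7 of 20 reads on NMD transcripts, 45.2% and 35%. Slc35b1, a carrier of the endoplasmic reticulum membrane, had 31 of 115 and 17 of 67, or 27% and 25.4%. Slc35b1-202 arises from an acceptor shifted by 25 bases. Tmem234 had 45 of 162 and 32 of 103, or 27.8% and 31.1%, over several transcripts of which Tmem234-210 was the largest with 23 and 14 reads. The 3 genes had shares of similar size in both libraries, within wide intervals.

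Gfer, a sulfhydryl oxidase of the intermembrane space, had 15 of 64 and 15 of 60 reads on Gfer-204, shares of 23.4% and 25%. Tk2, the mitochondrial thymidine kinase, had 28 and 23 reads on Tk2-202, or 15.8% and 15.9% of the gene. The coding transcript Tk2-201 had 106 and 61. Tmem126a, which encodes a mitochondrial membrane protein, had 7 of 40 and 9 of 28 reads, and Hyi, a hydroxypyruvate isomerase, 7 of 31 and 6 of 27. Iscu, the scaffold for iron-sulfur cluster assembly, had 64 and 61 reads on Iscu-205 but far more on its coding transcript (1170 and 1069), so that the NMD share was 4.92% and 5.09%. The annotation marks the start of Iscu-205 as not found, which makes its reading frame less certain.

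Chpt1, a choline phosphotransferase of phosphatidylcholine synthesis, had the second largest number of NMD reads. Chpt1-207 took 270 of 1761 reads in replicate 1 and 129 of 854 in replicate 2, shares of 15.3% and 15.1%. Its donor site is shifted by 93 bases, the stop is that of a coding transcript of the gene, and it lies 72 bases before the last junction. The coding length of 1194 bases is close to the 1218 of Chpt1-203, the coding transcript with the most reads. Pcnp, a PEST-domain nuclear protein, had 2 NMD transcripts that use different acceptors of the same intron, Pcnp-206 with 39 and 18 reads and Pcnp-205 with 34 and 18. Zfand5-204, from a zinc finger gene, had 29 and 29 reads (4.71% and 8.73% of the gene), and Tesc-202, from the calcium-binding protein tescalcin, 29 and 17 (8.22% and 6.91%).

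Ddx5, a DEAD-box RNA helicase with roles in splicing and transcription, was the one gene with an NMD transcript past the share test. Ddx5-208 had 343 of 1236 reads in replicate 1, or 27.8% (25.3% to 30.3%), and 600 of 1299 in replicate 2, or 46.2% (43.5% to 48.9%). The share of the spliced coding transcript Ddx5-201 went the other way, with 653 of the 1236 gene reads and 419 of the 1299. These reads are not scaled to library size, and replicate 1 was the deeper library, so they do not show a fall in level. The share difference of Ddx5-208, 18.4 percentage points, had an adjusted p of 6.83e-19 (two-sided Fisher's exact test, Benjamini-Hochberg over 7864 annotated transcripts). Counting every model that keeps the intron, the local share was 36.8% (439 of 1192 reads) and 61.4% (750 of 1222). This moved together with the share of retained-intron transcripts and of genomic-class reads given above, which were also higher in replicate 2. Whether the 3 have a common origin was not tested.

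Beyond Ddx5-208, no NMD transcript passed the share test, and most tested shares differed by less than 5 percentage points. With few reads per transcript, the lack of a call does not show equal shares. The share test covered every annotated transcript with at least 10 reads in a measured gene, and it called 1 of 89 NMD transcripts, Ddx5-208, beside a background of 1.87% of all 7864 transcripts tested. Higher in replicate 2 were 0.305% and higher in replicate 1 were 1.56% of all tested. At an unadjusted p under 0.05 in Fisher's exact test there were 6 of the 89 NMD transcripts, beside 925 of all 7864 tested. Of the 89, 45 had the higher share in replicate 2 and 44 in replicate 1, and 65 differed by less than 5 percentage points. The median absolute difference was 1.76 points and the largest was 20.0 points, for transcripts of genes with about the minimum number of reads (Rbmx-205 and Prmt6-202). Exact intervals overlapped for 88 of the 89, and Ddx5-208 was the exception. Overlap was not computed for the other annotated transcripts, so this count has no background to set beside it.

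As a description, Pearson's r of the 89 shares was 0.884 and Spearman's rho 0.889. The points share the gene totals and library depth, so the coefficients carry no test. Over all 550 transcripts of measured genes with any read, rho was 0.348. Of the 733 transcripts, 372 (50.8%) had reads in both libraries, compared with 75.6% of protein-coding and 39.0% of retained-intron transcripts with reads. The 3 classes differ in depth, with medians of 2, 12 and 2 reads. A transcript with 1 read cannot be seen in both libraries, and such transcripts were 34.1%, 16% and 47.4% of the classes. The 361 seen in 1 library had at most 8 reads (Ccnl1-205 and Stx1a-204, 8 and 0 each), and 250 of them had 1.

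**Figure D2:**
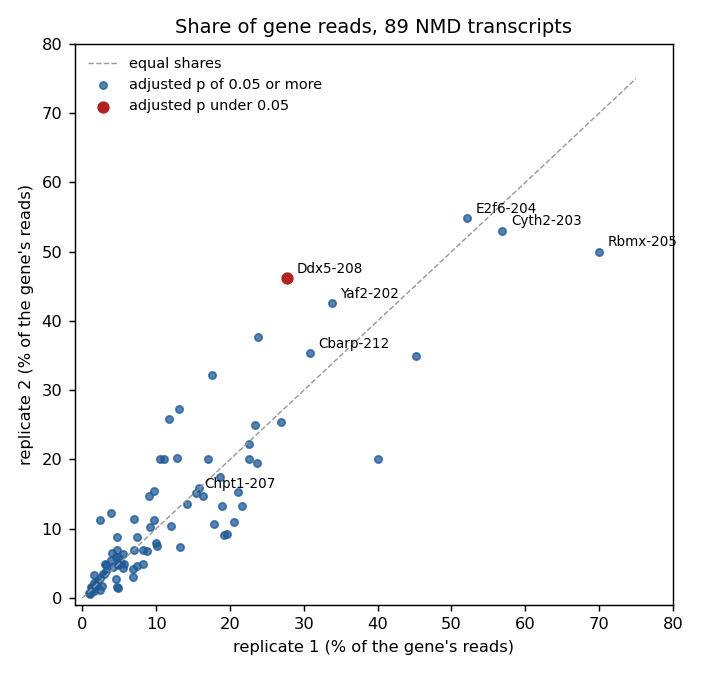
Share of the gene's reads in replicate 1 (x axis, percent) and replicate 2 (y axis, percent) for the 89 NMD transcripts with at least 10 reads in measured genes; each point is 1 transcript and the dashed line marks equal shares. Ddx5-208, the single transcript with an adjusted p under 0.05, lies above the line, and 65 points differ by less than 5 percentage points.

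Reads of the transcripts themselves, scaled by library size, were compared by a two-sided exact binomial test with Benjamini-Hochberg adjustment over 10231 annotated transcripts. It called 6 of 93 NMD transcripts, beside a background of 10.8% of all tested. Of these, 5 were higher in replicate 2, beside 4.36% of all tested, and 1 in replicate 1, beside 6.47%. With library sizes from the spike-in totals the calls numbered 7, with 3 higher in replicate 2 and 4 in replicate 1, so the direction of the calls as a group depends on the scaling. A share and a level can part ways, since a level moves with the whole gene.

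Ddx5-208 was 2.59-fold higher in replicate 2 (interval 2.26 to 2.96, adjusted p = 2.74e-44 by the exact test), and Cbarp-212 was 4.32-fold higher (2.19 to 9.13, adjusted p = 0.000112 by the exact test). Cbarp-212 had an almost equal share, as its gene went from 39 to 99 reads. Chpt1-207 was 1.42-fold higher in replicate 1 (1.14 to 1.76, adjusted p = 0.0146 by the exact test), again with an equal share. Crebzf-205 was 1.87-fold higher in replicate 2 (1.25 to 2.83, adjusted p = 0.0203 by the exact test), a call that spike-in scaling removed (adjusted p = 0.145, exact test). The other 2 calls rested on 12 reads each. Akap8-213, from a nuclear anchoring protein, had 2 and 10 reads (adjusted p = 0.0476, and 0.0669 with spike-in scaling, exact tests). Sugp2-205, from a G-patch protein, had 1 and 11 reads (adjusted p = 0.00588, exact test) in a gene below the read minimum of the share test.

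The way an NMD transcript departs from the coding form was read from the annotation. For 704 of the 733, the gene had an annotated coding transcript with reads, and the most-read one served as reference. A single splicing difference separated the pair in 558 (79.3%), which held 90.3% of the reads. Exon skipping was the most frequent with 152 transcripts, followed by exon inclusion with 120, a changed acceptor with 116 and a changed donor with 113. Retained introns were rare, 16 transcripts or 2.27%, but held 12.6% of the reads in replicate 1 and 26.1% in replicate 2, mostly through Ddx5-208. Changed donors held 24.7% and 18.0%, in which Chpt1-207 and Cyth2-203 are the largest.

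**Figure D3:**
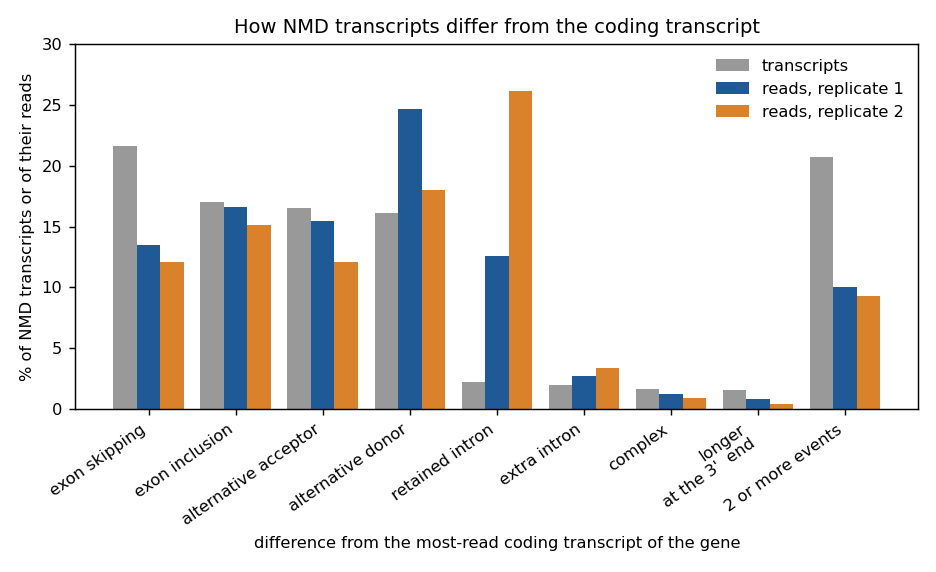
Percent of NMD transcripts (grey) and of their reads in each library (blue and orange) by the difference from the most-read coding transcript of the gene, for classes of at least 5 transcripts and for transcripts with 2 or more differences. Retained introns are 2.27% of the transcripts and 12.6% and 26.1% of the reads; exon skipping is 21.6% of the transcripts and 13.5% and 12.1% of the reads.

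The reading frame followed the kind of change. Of 152 skipping events, 151 removed a number of bases that is not a multiple of 3, as did 107 of 116 acceptor and 97 of 113 donor changes. Inclusion differed: 35 of 120 added a multiple of 3, and in 32 of those 35 the stop lay inside the added exon, as in E2f6-204, Cbarp-212 and Srsf3-201. The stop lay inside the added exon in 96 of all 120. Since the annotation assigns the NMD type from the reading frame, these counts describe routes to an early stop and are not independent of the label.

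By position, the stop lay in coding exons read in another frame in 402 of 704 transcripts (57.1%, 38.3% of reads), as in Tk2-202 and Cyth2-203. It lay in sequence outside the coding transcript in 227 (32.2%, 41.6% of reads), as in Ddx5-208 and Yaf2-202. In 70 (9.94%, 18.3% of reads) it was the stop codon of a coding transcript, with an intron spliced downstream of it. Of those 70, 34 kept the start and coding length of the most-read coding transcript. Gfer-204 (594 bases), Prmt6-202 (1134), Hnrnpa1-203 (960) and Hnrnpdl-201 (1260) are among them, so the open reading frame of these NMD transcripts has the length of the coding one. Over the 704, the median coding length was 35.2% of that of the reference (quartiles 20.2% and 58.8%).

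The stop codon was TGA in 423, TAG in 162 and TAA in 148 of the 733. The distance from stop to last junction had a median of 344 bases (quartiles 158 and 718) and reached 3801 in Uggt1-209, which had 1 read. It exceeded 50 bases in 727 (99.2%), the limit that the annotation's NMD type is built on, so this count checks the label and is no finding. Among the transcripts with most reads the distance ran from 72 bases in Chpt1-207 to 1485 in Ddx5-208.

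**Figure D4:**
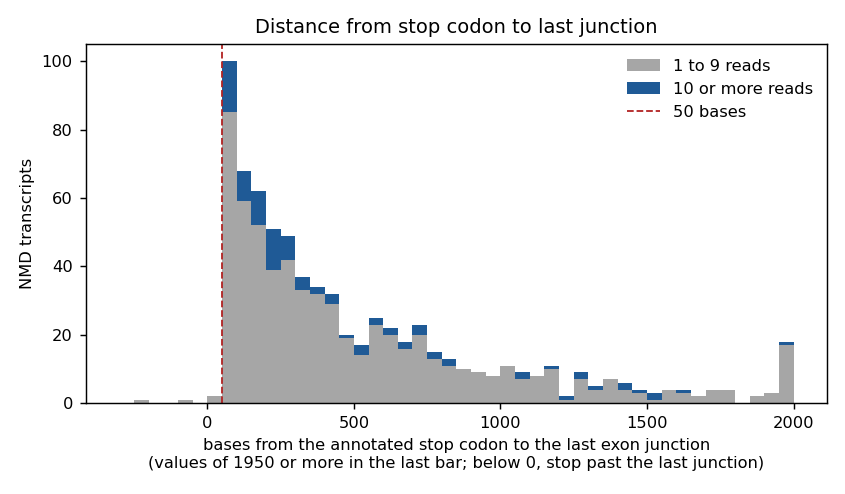
Number of NMD transcripts (y axis) by distance in bases from the annotated stop codon to the last exon junction (x axis), in bins of 50 bases, with transcripts of 10 or more reads in blue and those with fewer in grey. The dashed line marks 50 bases; 727 of the 733 lie beyond it and the median is 344.

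A read that is cut short at its 5′ end cannot be matched to a full transcript, so the share of whole transcripts can miss reads that carry the same splice event. A local share was therefore taken: reads of any model with the splice event, divided by reads of all models that span it. The event is a retained intron, or an intron that no annotated coding transcript of the gene has. The local share could be computed for 379 transcripts. Summed over these transcripts, 5967 reads carried the event, against 4149 reads (69.5%) of the NMD transcripts themselves. Other NMD transcripts of the gene can be among the carrying models, as Crebzf-203 and Crebzf-207 are for Crebzf-205. A read can therefore count for more than 1 transcript in these sums. For the 70 with at least 10 reads the local share exceeded the gene share in all 70, with medians of 10.7% and 7.32%. The smaller denominator and the added models both raise it by construction.

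By local share Cbarp-212, the fifth of the 70 by gene share, came first. It stood at 75% (15 of 20 reads) and 69.4% (43 of 62). E2f6-204 stood at 66.7% and 71.1%, Crebzf-205 at 59.8% and 62.9%, and Cyth2-203 at 60.2% and 62.1%. These were the 4 of the 70 at 50% or more in both libraries, and 16 were at 20% or more. Dnajc5-204, from the synaptic vesicle chaperone known as cysteine string protein, had a pooled gene share of 18.6% and a pooled local share of 43%. Rbm39-225, from a splicing factor gene, had 1.79% and 14.2%, with 44 and 58 reads carrying the exon event and 8 and 6 on the transcript itself. Both genes were picked after their values were seen.

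**Figure D5:**
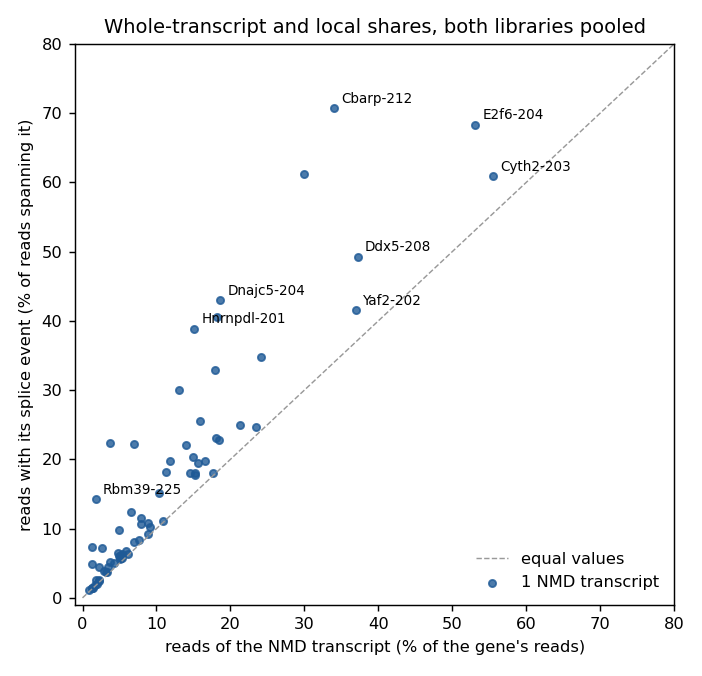
For 70 NMD transcripts with at least 10 reads, the percent of the gene's reads on the transcript (x axis) and the percent of reads spanning its splice event that carry the event (y axis), both libraries pooled. All points lie above the dashed line of equal values; Cbarp-212 is highest on the y axis.

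Splicing regulators are the textbook case of NMD-linked control. Of 11 SR protein genes with an annotated NMD transcript and enough reads, 5 had NMD reads, together 1.04% and 0.875% of the reads of those 11 genes. Srsf3, an SR protein with a well-known poison exon, had 8 of 255 and 7 of 147 reads on Srsf3-201, shares of 3.14% and 4.76%. By local share, 11 of 248 and 9 of 141 spanning reads carried the exon event. Srsf2, Srsf6, Tra2b and Srsf9 had 1 to 4 NMD reads in each library. All measured genes with an NMD annotation together stood at 0.809% and 1.01%, and 24.8% of them had an NMD read. These are the figures to set beside each list below, whose shares are likewise over measured genes with an NMD annotation, and no list was tested against them. Both of these shares include Ddx5, which gave 343 of the 2756 NMD reads in replicate 1 and 600 of the 2307 in replicate 2. Without Ddx5 both would be lower.

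Among hnRNP genes, which package pre-mRNA, 6 of 12 had NMD reads, 1.46% and 1.70% of the reads. Hnrnpa1 had 21 of 164 and 21 of 104 reads, shares of 12.8% and 20.2%, and Hnrnpdl 14 of 68 and 10 of 91, shares of 20.6% and 11.0%. The order of the libraries was opposite in the 2 genes, and neither passed the share test (adjusted p = 0.593 and 0.587). Hnrnpa1 and the related Rbmx, an X-linked RNA-binding protein with 14 of 20 and 13 of 26 reads on Rbmx-205, have near-identical copies in the genome, so their gene totals are less certain. Hnrnpa2b1 had 10 and 6 NMD reads (1.38% and 1.24%).

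In other splicing regulators 9 of 23 genes had NMD reads, and the summed share of 11.8% and 20.4% was mostly Ddx5. Without Ddx5 it was 1.56% and 1.62%. Rbm39 had 9 and 10 NMD reads (2.08% and 2.87%), and Tardbp, which limits its own mRNA, 5 and 5 (5.81% and 6.58%). Luc7l had 6 and 0, and the kinase gene Clk1 4 and 2. The machinery of NMD and of the exon junction complex, among them Upf1, Smg and Magoh genes, has 4 genes with an annotated NMD transcript, and none had an NMD read. Those 4 genes, of which 1 was measured, had 68 and 58 reads in all, so that a pooled share of up to 4.41% and 5.17% could go unseen.

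Few genes in the 2 lists of the adrenal's own functions have an annotated NMD transcript. Of all 6413 measured genes 1951 have one. The number differed between the other lists as well, with 11 of 12 measured SR protein genes, 19 of 79 ribosomal protein genes and 1 of 10 genes of the NMD machinery. Of 28 genes for steroid synthesis and cholesterol supply 4 have one, and 1 of the 4, Mrap, had NMD reads, 18 and 15. Mrap, which carries the ACTH receptor to the cell surface, had 3.90% and 2.26% of its reads on Mrap-204 (11 and 8 reads) and Mrap-202 (7 and 7). Its coding transcript Mrap-201 had 392 and 547. Of 22 chromaffin genes 2 have an annotated NMD transcript, and these had 0 NMD reads in 2186 and 968 gene reads. For the 2 pooled this allows a share of up to 0.137% and 0.310%. Only 1 of the 2 was measured, so the pooled limit says little about the other.

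Ribosomal protein genes had NMD reads in 7 of 19 genes, 0.307% and 0.341% of the reads. Rps19 led with 5 and 5. Processed copies of these genes make the counts uncertain. Respiratory chain genes had them in 9 of 21, 0.268% and 0.322%, led by complex I subunits. Ndufa7 had 18 of 364 and 18 of 316 reads on a transcript that skips a 50-base exon (4.95% and 5.70%), and Ndufs6 had 10 of 101 and 9 of 114 (9.90% and 7.89%). Among selenoproteins, whose UGA codons can be read as early stops, 2 of 4 genes had NMD reads, 0.54% and 0.45% of the reads. They were Selenoo with 4 and 1 and Selenos with 2 and 2.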

How the data were processed

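Long-read RNA sequencing of 2 adrenal gland libraries was analysed. The authors deposited counts of reads per transcript model, not normalized, on mm10 with GENCODE M21, per the file headers and the text beside them; the field names are those of TALON. The aligner, versions and read filters are not given in the sources used here. The other columns the authors deposited, exon numbers and lengths, describe the models. Transcript types and exons were checked against the GENCODE M21 reference and were identical for all 20883 and 19472 annotated models with reads; coding regions, stop codons and sequences came from that reference.

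Gene reads are the sum over all models of an annotated gene, including truncated and unannotated ones; spike-ins were left out (18340 and 15552 reads). Shares carry exact Clopper-Pearson 95% intervals, which cover counting error only, as no molecular identifiers are stated. Shares were compared by Fisher's exact test and reads by an exact binomial test with edgeR 4.0.16 TMM library sizes (genes with 10 or more reads, factors 0.989 and 1.01), each adjusted over all annotated transcripts tested. Both tests were also run on simulated libraries with known changes. Those libraries held counting error only, so the runs say nothing of other variation between libraries.

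Named were the 15 NMD transcripts with most reads, the 15 measured genes with the highest pooled share, transcripts past the share test and up to 5 genes per list; others were chosen after their values were seen, as was the local share, among them the transcripts past the reads test, Dnajc5 and Uggt1. Members and lists were chosen with earlier results of these data known. Alternatives were other denominators, read minimums, thinning of replicate 1, DESeq2 1.42.0 size factors, total and spike-in scaling, and leaving out each library. Other tools were R 4.3.3, Python 3.11.15, scipy 1.17.1, statsmodels 0.14.6, pandas 2.3.3, numpy 2.4.6 and matplotlib 3.10.9.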

Additional observations from a re-analysis of the deposited data

How the results depend on the processing

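The mean NMD share of gene reads, 0.242%, was 0.323% over reads of annotated models only and 0.198% without Ddx5, an alternative chosen after seeing the data; single libraries gave 0.215% to 0.268%. The 733 transcripts became 424 with at least 2 reads in a library and 138 with at least 5, and 529 to 576 in single libraries. The 37 genes with an NMD share of 10% or more were 17 with at least 50 gene reads, and 49 to 56 when 1 library was used. With no minimum on transcript reads the share test called 2 NMD transcripts, adding Ccnl1-205 (8 and 0 reads, adjusted p = 0.0478 by Fisher's exact test). Ddx5-208 passed the share test under all 4 alternatives run. Without a read minimum Akap8-213 lost its call in reads (adjusted p = 0.111, exact test). With replicate 1 thinned to the depth of replicate 2 the set was 675, and 250 of the 733 rest on 1 read. No paired analysis was possible because the series has 1 group.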
